A study of Mus musculus with 6 samples.

Results

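The innate immune and cytokine receptors that signal to TAK1, with 2 of their adaptors, were followed in mouse gastrocnemius, a calf muscle. The 10 genes are 4 Toll-like receptors (Tlr2, Tlr3, Tlr4 and Tlr5), the interleukin-1 receptor Il1r1, 3 receptors of the tumour necrosis factor family (Tnfrsf1a, Tnfrsf1b and Tnfrsf12a), the adaptor Myd88 and the kinase Irak1. They were chosen by symbol, with the probe set of highest mean taken where a gene has several, and are 10 of the 22180 genes that a single-symbol probe set names. Each of the 10 had 1 probe set with a single symbol, so the choice by mean level was never needed.

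RNA was measured on 6 Affymetrix arrays, 1 per mouse. Per the labels, 3 mice had lost TAK1, the kinase encoded by Map3k7, in skeletal muscle 3 weeks earlier, and 3 floxed littermates, which carry the TAK1 allele flanked by recombination sites, were the controls. The Cre line, the agent that started the deletion, strain, sex and age are not stated in the labels, nor is it said whether the controls received the same agent. The RNA is that of whole muscle, which holds vessels, connective tissue and leukocytes beside the fibres that the deletion is labelled to target.

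Toll-like receptors recognise microbial products and molecules released from damaged cells. The interleukin-1 receptor and most Toll-like receptors recruit MyD88, which assembles IRAK kinases and the ubiquitin ligase TRAF6, and the ubiquitin chains formed there activate TAK1. Tumour necrosis factor receptors reach TAK1 through TRAF proteins and the IAP ligases. Tnfrsf1a, which carries a death domain, does so by way of TRADD and RIPK1. TAK1 then switches on the IKK complex of the NF-kB pathway and the p38 and JNK kinases. In skeletal muscle this route is best known for the loss of mass caused by inflammatory cytokines and by TWEAK, the ligand of Tnfrsf12a.

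The values are log2 summaries per probe set. A level on one probe set cannot be set against that on another, so each gene is compared only with itself between arrays. Odorant and pheromone receptors, expressed mainly in sensory neurons, served to gauge background: of 1394 such genes, 95% had a mean under 5.85. This guide decided no call. Of all genes 56.8% had a mean above it, as did all 10 members, with Tlr2 nearest to it (mean over all arrays 5.86). All 10 fibre markers lay above the guide, and Acta1, skeletal alpha-actin, averaged 14.07 in knockout and 14.12 in control muscle.

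Map3k7, the targeted gene, had 8.20, 8.28 and 8.17 in knockout muscle and 8.47, 8.32 and 8.42 in control muscle. The knockout values all lay below the control values, with a log2 difference of −0.19 (95% confidence interval −0.40 to 0.03, limma adjusted p = 0.686). The exact two-sided permutation test gave p = 0.1, the smallest that 3 against 3 arrays allow. The labels do not name the deleted exons, so this probe set does not settle how much of the kinase was lost.

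The comparison of knockout with control muscle asks whether the receptors and adaptors that feed TAK1 are expressed differently once the kinase is deleted below them. Tlr5 had the largest difference of the 10 members, 1.62-fold higher in knockout muscle, and 0 of the 10 passed the test over all genes. The other 9 differed by at most 1.15-fold in either direction and had overlapping groups. Test and adjustment were limma's moderated test with Benjamini-Hochberg correction over 22180 genes, at an adjusted p of 0.05. At that threshold 0.0947% of all genes were called. At an unadjusted p under 0.05 the member count was 1 (Tlr5), where 8.04% of all genes passed. The groups did not overlap in 1 of the 10 members, against 13.4% of all genes, so the share of members was near the background. Of the 10, 6 were higher and 4 lower in knockout muscle. Their median log2 difference was 0.04, that of all genes −0.0003. The list was drawn up with results of these data known, so the place of Tlr5 at its head is a description.

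**Figure D1:**
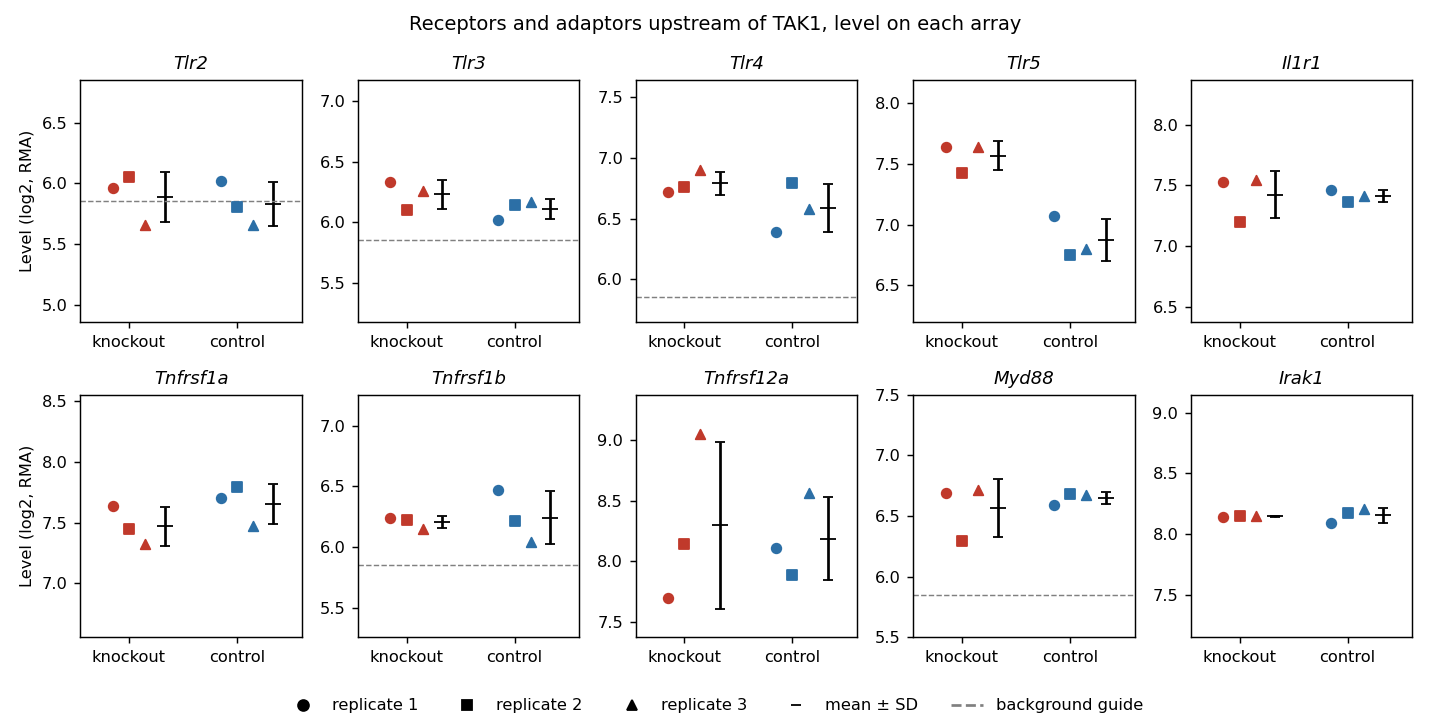
Log2 level of each member on every array, knockout left and control right, with 1 symbol per replicate number and the mean ± SD (n = 3) beside each group. Every panel spans the same range of log2 units, and the dashed line is the background guide of 5.85. Tlr5 separates the groups, Tnfrsf12a is spread widely within both, and Irak1 hardly varies.

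Tlr5, the receptor for bacterial flagellin, had 7.64, 7.43 and 7.64 in knockout muscle, against 7.07, 6.75 and 6.80 in control muscle. Every knockout array lay above every control array, with a gap of 0.35 between the lowest knockout and the highest control value. The level averaged 7.57 ± 0.12 in knockout and 6.87 ± 0.17 in control muscle (SD, n = 3 each), a 1.62-fold difference with a 95% confidence interval of 1.34 to 1.95. On the log2 scale this was 0.69 (SE 0.12, limma adjusted p = 0.135). By p-value Tlr5 ranked 54 of 22180 genes, and 58 of the 12601 genes above the guide when ordered by how much higher they were in knockout muscle. With only above-median genes in the limma fit, the adjusted p was 0.0470, and it was 0.0524 with the genes above the guide. Such a filter shortens the list corrected for and also changes limma's estimates of variance. Without 1 array in turn, the log2 difference ran from 0.63 to 0.79 and the adjusted p from 0.127 to 0.421.

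Whole muscle holds several cell types, and in such bulk RNA more cells of a type cannot be told apart from more RNA per cell. Beside the values of Tlr5 stand those of 3 of the cell types that could carry it, with fibres and endothelium given in brief. The 10 fibre markers had a median log2 difference of −0.004, with 3 higher and 7 lower, and a range of −0.17 to 0.17. The groups did not overlap in 4 of the 10, 1 higher and 3 lower, against 13.4% of all genes, and 0 were called (limma). For the 8 endothelial markers the median was −0.003, with 4 higher and 4 lower. The 10 macrophage markers, all measured and all above the guide, summed to 1352 to 1722 linear units in knockout and 1331 to 1616 in control muscle, overlapping ranges. Of the 10, 6 were higher and 4 lower, with a median log2 difference of 0.01. Their differences ran from −0.23 for Adgre1, the F4/80 antigen, to 0.42 for Cd68, a lysosomal protein, while Csf1r, the macrophage growth factor receptor, averaged 7.31 ± 0.30 in knockout and 7.30 ± 0.27 in control muscle (SD, n = 3).

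Of 8 neutrophil markers, 7 were higher in knockout muscle, with a median log2 difference of 0.18 and 1 marker above the guide. The 8 summed to 252 to 314 in knockout and 235 to 259 in control muscle, overlapping ranges. The groups did not overlap in 3 of the 8, all higher (Mmp8, S100a9 and Cxcr2), against 6.74% of all genes in that direction. Cxcr2, the 1 marker above the guide, had a log2 difference of 0.06. An unadjusted limma p under 0.05 was reached by 3 as well, where 8.04% of all genes passed. They were Mmp8, a collagenase of neutrophil granules (log2 difference 0.49), S100a9 (0.51) and S100a8 (0.37). These 3 lay below the guide, as did the defining gene Ly6g, at 4.50 in knockout and 4.20 in control muscle with overlapping groups. Of the remaining markers, Csf3r was lower (log2 difference −0.10), and Retnlg and Ngp had 0.01 and 0.06.

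Markers of satellite cells, the stem cells of muscle, summed to 572 to 624 in knockout and 665 to 699 in control muscle over 6 genes (5 above the guide), ranges that did not overlap. Of the 6, 2 were higher and 4 lower, with a median log2 difference of −0.13. Chrdl2, a secreted BMP-binding protein (log2 difference −0.40), and Cdh15, the adhesion molecule M-cadherin (−0.26), were lower on every knockout array. These were 2 of 6 markers without overlap, against 13.4% of all genes. Chrdl2 and Cdh15 are also part of the sums, which are thus not separate from them. The defining factor Pax7 had a log2 difference of −0.05, and Myf5 and Calcr had 0.02 and 0.05. Vcam1, also on the list of NF-kB targets below, had −0.21 with overlapping groups. By limma 0 markers of these 3 lists were called, with lowest adjusted p of 0.647 for macrophages, 0.350 for neutrophils and 0.461 for satellite cells. Markers other than Adgre1, Csf1r, Ly6g and Pax7 were named after their values were seen. The part of other cells in the Tlr5 difference was not tested.

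The other Toll-like receptors showed smaller differences, with overlapping groups. Tlr4, the receptor for bacterial lipopolysaccharide, had 6.72, 6.76 and 6.90 in knockout muscle and 6.39, 6.79 and 6.58 in control muscle. Its mean was 1.15-fold higher in knockout muscle (95% confidence interval 0.95 to 1.40, limma adjusted p = 0.751). Control 2 exceeded the lower pair of knockout arrays, while control 1 was the lowest of all 6.

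Tlr3, which binds double-stranded RNA and signals through the adaptor TRIF in place of MyD88, had 6.33, 6.10 and 6.26 in knockout muscle and 6.02, 6.14 and 6.17 in control muscle. The ratio was 1.08 (95% confidence interval 0.92 to 1.28, limma adjusted p = 0.848). Tlr2, a receptor for bacterial lipoproteins, had 5.96, 6.05 and 5.66 in knockout muscle and 6.02, 5.81 and 5.66 in control muscle. On 3 of the 6 arrays it lay above the guide, so a difference could be hidden by background. Its ratio was 1.05 (0.84 to 1.30, adjusted p = 0.953). Intervals of Tlr2, Tlr3 and Tlr4 all reach below 1, and their upper ends lie between 1.28 and 1.40.

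Il1r1, the signalling receptor for interleukin-1, had 7.53, 7.20 and 7.54 in knockout muscle and 7.46, 7.36 and 7.41 in control muscle. Knockout 2 was the lowest of the 6 arrays and the other knockouts the highest, so the group means nearly coincided. The ratio was 1.01 (95% confidence interval 0.84 to 1.21, limma adjusted p = 0.992). Its co-receptor Il1rap averaged 6.28 in knockout and 6.34 in control muscle, and the decoy receptor Il1r2 averaged 5.96 in knockout and 5.98 in control muscle.

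Among the tumour necrosis factor receptors, Tnfrsf1a, the widely expressed receptor that carries a death domain, had 7.64, 7.45 and 7.32 in knockout muscle and 7.70, 7.79 and 7.47 in control muscle. The knockout mean was lower, at 7.47 ± 0.16 against 7.65 ± 0.16 in controls (SD, n = 3), but the groups overlapped. Its log2 difference was −0.18 (95% confidence interval −0.47 to 0.10, limma adjusted p = 0.792).

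Tnfrsf1b, the second receptor for the same cytokine, which lacks a death domain, had 6.24, 6.22 and 6.15 in knockout muscle. The control values of 6.47, 6.21 and 6.04 enclosed all 3. Its log2 difference was −0.04 (95% confidence interval −0.32 to 0.24, limma adjusted p = 0.971).

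Tnfrsf12a, also called Fn14, is the receptor for TWEAK and is known to be induced in denervated muscle. It had 7.70, 8.14 and 9.05 in knockout muscle and 8.11, 7.89 and 8.56 in control muscle. The lowest and the highest of all 6 arrays were both knockouts. With means of 8.30 ± 0.69 in knockout and 8.19 ± 0.34 in control muscle (SD, n = 3), the log2 difference of 0.11 was smaller than either SD (95% confidence interval −0.61 to 0.83, limma adjusted p = 0.967). Spread within groups was larger than for 99.3% of all genes. The interval allows a ratio from 0.65 to 1.78, which includes a difference of the size measured for Tlr5.

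All 8 tenocyte markers were lower in knockout muscle, with a median log2 difference of −0.56. By limma 0 were called and 4 had an unadjusted p under 0.05, where 8.04% of all genes passed. The 4 included Kera, a proteoglycan (−1.43), Tnmd, a tendon membrane protein (−1.02), and Fmod, a collagen-binding proteoglycan (−0.93). Among the 8, Fmod alone had groups that did not overlap, near the share of 13.4% over all genes. Kera and Fmod were named after their values were seen. The 7 measured fibro-adipogenic markers had a median of −0.11, with 5 lower. Knockout 3, the array with the highest Tnfrsf12a, had the lowest sums of 8 tenocyte markers and of 7 measured fibro-adipogenic markers. It also had the highest neutrophil sum (314) and the lowest satellite cell sum (572) of the arrays. Tenocyte sums were 1230 on that array, 2413 and 2627 on the other knockouts, and 2275 to 3544 in controls. Fibro-adipogenic sums were 7238 on that array, 10379 and 12046 on the other knockouts, and 10010 to 11378 in controls. Control 3, with the next highest Tnfrsf12a (8.56), had sums of 3231 for tenocyte and 10774 for fibro-adipogenic markers, neither of them low among the arrays. Tnmd had 5.52 on knockout 3, below the guide. Without knockout 3 the log2 difference of Tnfrsf12a was −0.27 in place of 0.11. The part of these cells in the level of Tnfrsf12a was not tested.

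Myd88, the adaptor that joins Toll-like and interleukin-1 receptors to the IRAK kinases, had 6.69, 6.29 and 6.71 in knockout muscle and 6.59, 6.68 and 6.67 in control muscle. Knockout 2 was lowest, as it was for Il1r1, and the other knockouts lay slightly above the controls. Its log2 difference was −0.08 (95% confidence interval −0.38 to 0.21, limma adjusted p = 0.929).

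Irak1, the kinase recruited by Myd88, had 8.14, 8.15 and 8.15 in knockout muscle and 8.09, 8.17 and 8.21 in control muscle. The 3 knockout arrays differed by an SD of 0.005, and 2.55% of all genes had a spread within groups as small or smaller. Its log2 difference was −0.01 (95% confidence interval −0.22 to 0.20, limma adjusted p = 0.993).

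**Figure D2:**
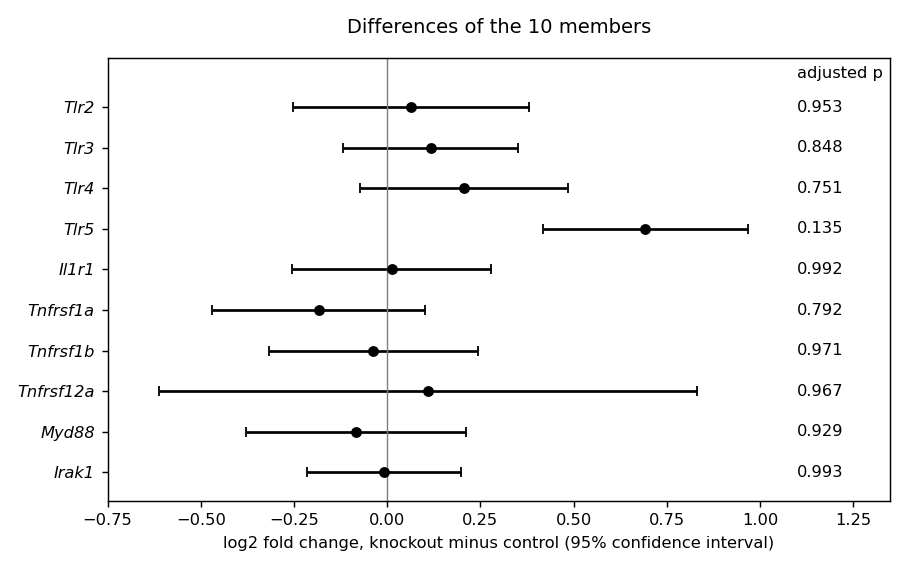
Log2 fold change of each member (knockout minus control) with its 95% confidence interval from limma, and the p adjusted over all genes at the right. The interval of Tlr5 runs from 0.42 to 0.97, those of the other 9 members include 0, and that of Tnfrsf12a is the widest of the 10.

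The rest of the pathway was read from 4 lists ordered by role, with 84 genes listed once each. A single-symbol probe set covered 79 of them, and 49 had a mean above the guide. By limma 0 of the 79 were called and 5 had an unadjusted p under 0.05, where 8.04% of all genes passed. Of the 79, 35 were higher and 44 lower in knockout muscle. The median log2 difference was −0.005, with a range of −0.25 to 0.56. Groups did not overlap in 9 of the 79 (11.4%), against 13.4% of all genes.

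Of 15 measured ligands and co-receptors, 4 lay above the guide, 9 were higher and 0 were called (limma), with a median log2 difference of 0.08. The inflammatory ligands Tnf, Il1a and Il1b were among the 11 at or below the guide. Among those above it, Ly96, the partner of Tlr4 also called MD-2, had a log2 difference of −0.23 (limma adjusted p = 0.869). Il33, an interleukin-1 family member, had −0.13 (adjusted p = 0.888), and Lbp, named after its value was seen, had −0.13 (adjusted p = 0.855). Hmgb1, a nuclear protein that acts as a danger signal outside cells, had 11.73, 11.91 and 11.78 in knockout muscle and 11.72, 11.62 and 11.55 in control muscle (log2 difference 0.18, adjusted p = 0.731). Its groups were separated by 0.009 alone.

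Groups did not overlap in 5 of these 15 genes, all higher in knockout muscle: Hmgb1, Il1a, Il1rn, S100a9 and Cd40lg, the last 4 of which are named after their values were seen and lay below the guide. Over all genes, 6.74% did not overlap in this direction. S100a9, a calcium-binding ligand of Tlr4 abundant in neutrophils, had the largest difference of them, with 4.78, 5.24 and 5.38 in knockout muscle and 4.60, 4.71 and 4.55 in control muscle (log2 difference 0.51, limma adjusted p = 0.425). Its partner S100a8 averaged 3.88 in knockout and 3.52 in control muscle. Both are also on the neutrophil list, so the counts of the 2 lists partly rest on the same genes.

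Of 22 other receptors of the same families, 10 lay above the guide, 8 were higher and 0 were called (limma), with a median of −0.01. Of the Toll-like receptors on that list, Tlr9 alone was above the guide, at 6.31 in knockout and 6.35 in control muscle. Tnfrsf19, also called TROY, a death-domain-free receptor of the tumour necrosis factor family, had 8.28, 8.26 and 7.72 in knockout muscle and 7.48, 7.46 and 7.63 in control muscle. Its groups did not overlap, and the log2 difference was 0.56 (95% confidence interval 0.20 to 0.92, adjusted p = 0.368). Knockout 3 lay only 0.09 above the highest control.

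Eda2r, the receptor for ectodysplasin A2, had 7.63, 7.58 and 7.93 in knockout muscle and 7.63, 6.65 and 7.84 in control muscle (log2 difference 0.34, limma adjusted p = 0.833). Control 2 stood well below the other 5 arrays. Ltbr, the lymphotoxin beta receptor, had 8.03, 7.96 and 8.06 in knockout muscle and 8.31, 8.11 and 8.16 in control muscle (log2 difference −0.18, adjusted p = 0.722). Its groups did not overlap, with lower values in knockout muscle.

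Of 22 measured adaptors between receptor and kinase, 19 lay above the guide, 10 were higher and 0 were called (limma), with a median of −0.02. Irak2, a kinase of the same complex as Irak1, had 7.43, 7.55 and 7.47 in knockout muscle and 6.96, 7.27 and 7.31 in control muscle. Every knockout array was above every control array, and the log2 difference was 0.31 (95% confidence interval 0.04 to 0.58, adjusted p = 0.560). Traf6, the ubiquitin ligase directly upstream of TAK1, had 7.45, 7.44 and 7.54 in knockout muscle and 7.68, 7.55 and 7.94 in control muscle. It lay lower on every knockout array, by a gap of 0.02, with a log2 difference of −0.25 (−0.52 to 0.02, adjusted p = 0.653). Fadd, the adaptor of death receptors, had a log2 difference of 0.19 with overlapping groups (adjusted p = 0.789).

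Targets of NF-kB and of the inflammatory cytokines, the far end of the route, had the narrowest range of differences among the 4 lists. All 20 were measured, 16 lay above the guide, and 0 were called or free of overlap between groups, with log2 differences from −0.22 to 0.18 and a median of −0.005. The 3 largest differences above the guide were in Csf1, the macrophage growth factor (−0.22, limma adjusted p = 0.716), and in the adhesion molecules Vcam1 (−0.21, adjusted p = 0.861) and Icam1 (−0.20, adjusted p = 0.673). Icam1 had 6.41, 6.25 and 6.24 in knockout muscle and 6.40, 6.55 and 6.55 in control muscle, where knockout 1 was just above the lowest control.

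**Figure D3:**
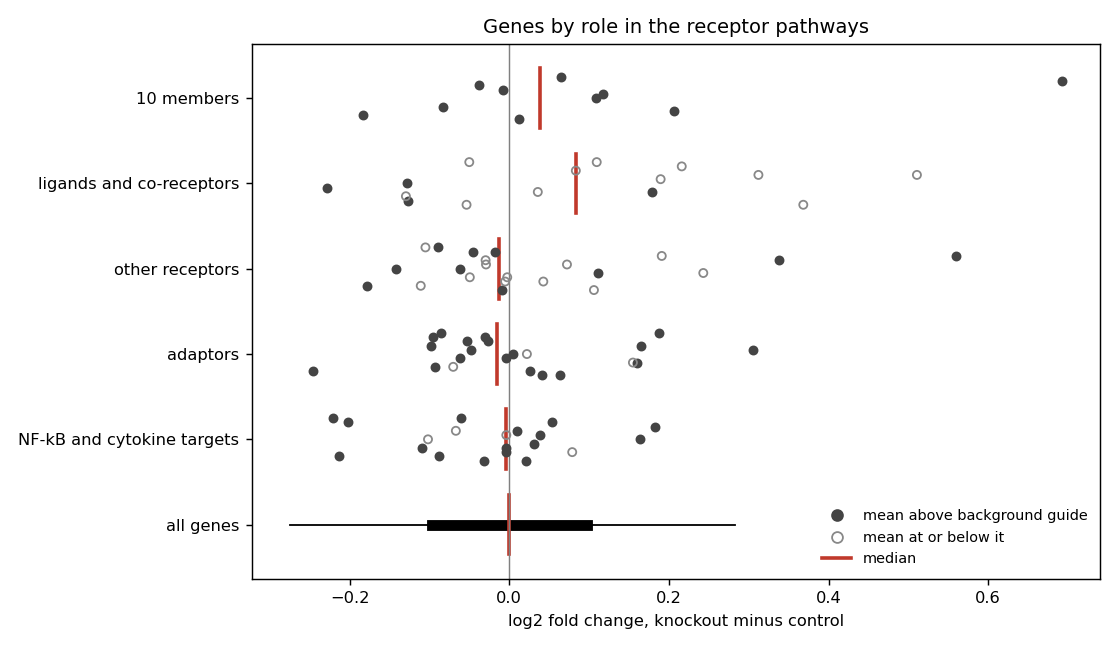
Log2 fold change (knockout minus control) of each measured gene by role, with filled points above the background guide, open points at or below it, and a red bar at the median. For all genes the thick line spans the quartiles (−0.10 to 0.10) and the thin line the 5th to 95th percentile (−0.28 to 0.28). Tlr5 is the point farthest right, at 0.69, and the medians of all 5 lists lie between −0.02 and 0.08.

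The genes whose pattern over the 6 arrays was most like that of Tlr5 were sought among 12600 others above the guide, by Pearson's r. The 5 highest were Abi2, a regulator of actin assembly (r = 0.992), Chrnb1, the beta subunit of the muscle acetylcholine receptor (0.992), Eif3l, a translation initiation factor subunit (0.991), Gm6570, a predicted gene (0.988), and Scamp5, a secretory carrier membrane protein (0.984). These r are over 6 arrays in separate groups, so they rest largely on the difference between the groups, and r exceeded 0.9 for 185 genes. Chrnb1 had 9.32, 9.03 and 9.40 in knockout muscle and 8.78, 8.28 and 8.37 in control muscle. As with Tlr5, knockout 2 was the lowest knockout and control 1 the highest control, a likeness that the choice by r favours. Its log2 difference was 0.77 (limma adjusted p = 0.196), and those of Abi2, Scamp5, Gm6570 and Eif3l were 0.36, 0.32, 0.19 and 0.15 (adjusted p between 0.351 and 0.769).

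**Figure D4:**
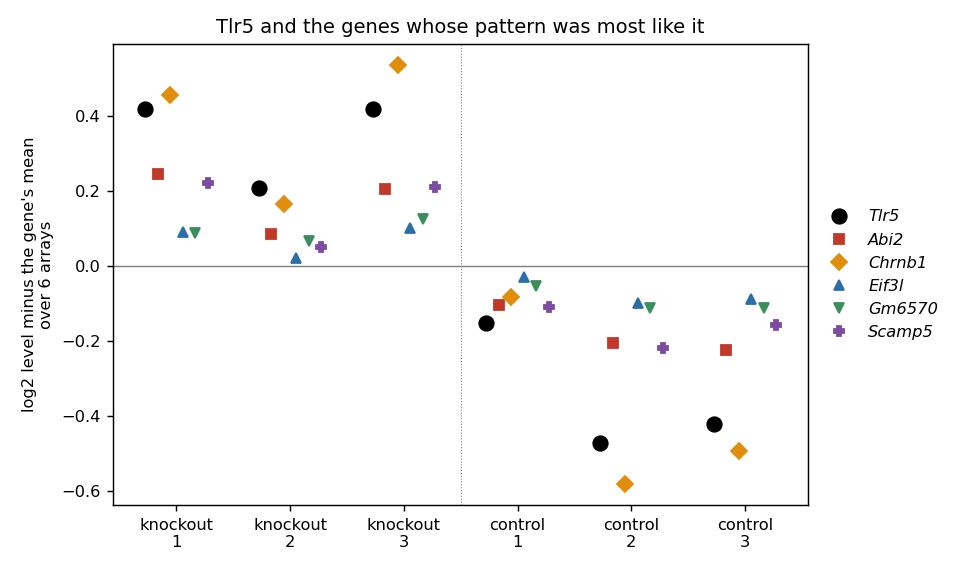
Log2 level of Tlr5 and of the 5 genes most like it on each array, minus the mean of that gene over the 6 arrays, with knockout arrays left of control arrays. Every gene is above its mean on the 3 knockout arrays and below it on the 3 control arrays, and Chrnb1 spans 0.77 between the group means and Tlr5 0.69.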

How the data were processed

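The deposited values are log2 probe set summaries of 6 arrays, 41345 probe sets each. The submitters' processing notes name RMA, oligo and limma, without versions or order. RMA makes the arrays' distributions alike and compresses differences of dim genes. No genome build is named, so no coordinates are printed.

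Probe sets were named through GEO's platform annotation (23521 with 1 symbol, 1814 with several, 16010 with none). Of the first, 23328 were found by Entrez identifier in the RefSeq table of GRCm38.p6. The probe set of highest mean stood for a gene. Groups were compared with limma 3.58.1 (lmFit and eBayes, default settings) in R 4.3.3, two-sided. Intervals are 95%. Sums of markers are of values raised from log2 to the linear scale. Figures were drawn with matplotlib 3.10.9.

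Members, lists and tests were chosen with earlier results of these data known. Named are the members, Map3k7, up to 3 genes with the largest differences above the guide per pathway list, defining markers, and the 5 genes most like the member with the largest difference. Others were named after their values were seen. On simulated data with 22180 genes, 200 of them changed, and independent normal noise, the test recovered 54.2% of genes changed 1.5-fold. It recovered 98.1% of those changed 2-fold, with 6.47% of calls false. The simulated noise used limma's moderated SDs, which differ less between genes than the measured SDs do. In the measured data 21 genes were called and noise need not be independent. For these reasons the rates may overstate recovery there. The number of arrays limits precision, and nothing in the labels gives batches. Alternatives changed the normalization, the choice of probe set, the filter on dim genes, the variance model and the arrays used, or added a replicate block.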

Additional observations from a re-analysis of the deposited data

How the results depend on the processing

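Under 15 alternatives, 6 of which leave out 1 array, the 10 members had 0 calls, except with above-median genes only. That filter left 9 members to test, without Tlr2, and Tlr5 passed, so the count was 1. Calls among the 79 pathway genes were 0 in all 15, though the guide filter left 49 of them to test and the above-median filter 43. Over all genes the count of 21 became 6 with every probe set tested, 45 when restricted to genes above the guide, 53 when restricted to above-median genes and 36 when the prior was robust and followed intensity. Those filters leave fewer genes in both the fit and the correction, and the cause of the changes in count was not tested. Without knockout 1, 2 or 3 it was 3, 2 or 11, and without any 1 control it was 7. With the replicate block the count over all genes was 17 and the adjusted p of Tlr5 0.146. That block changed no call among members or pathway genes. Deviations from the group means correlated at 0.08, 0.21 and −0.07 between arrays of the same number. Knockouts 1 and 2 correlated best with the control of their own number, and knockout 3 with control 1 (0.14). All these correlations were weak, and the numbers were not taken as pairs.

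Tlr3, Tlr4, Tlr5 and Tnfrsf1a kept their direction in all alternatives. Leaving out 1 array gave log2 differences of −0.0223 to 0.179 for Tlr2, −0.0451 to 0.121 for Il1r1, −0.137 to 0.0769 for Tnfrsf1b, −0.270 to 0.408 for Tnfrsf12a, −0.157 to 0.0528 for Myd88 and −0.0446 to 0.0199 for Irak1. Irak1 also turned to 0.0041 with quantile normalization and to 0.0036 with median centring. The members' median ran from −0.01 to 0.09 without 1 array. Low signal limits Tlr2 and the 30 pathway genes at or below the guide.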
